A study of Homo sapiens with 18 samples.

Results

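The comparison described here follows LIS1+/- human embryonic stem cells (hESC) of the WIBR3 line into organoids at Day 5 of culture. It rests on 6 of the 18 libraries of the study, namely 3 of LIS1+/- organoids at Day 5 and 3 of LIS1+/- hESC, taken by their titles. The same step in LIS1+/+ cells, again 3 Day 5 and 3 hESC libraries, is set against it to test where the LIS1+/- step differed. The remaining 6 libraries are of Day 12 organoids in both genotypes, and all 18 libraries entered 1 model, sharing its filter, scaling and estimate of the spread. WIBR3 is an established hESC line, and every library comes from it. No treatment other than the culture itself is named. LIS1, gene symbol PAFAH1B1, encodes a dynein regulator, and people with a single working copy develop lissencephaly, a smooth brain surface without normal folds. The labels do not say how the allele was made or how many clones were used, and an effect of genotype cannot be told apart from that of a clone, nor do they say that the 3 libraries of a group came from separate cultures, so the p-values measure the spread between libraries.

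Neural induction is the step in which pluripotent cells leave the stem cell state and form neuroepithelium, the layer that founds the nervous system. In human cells, activin and Nodal signalling together with FGF keeps the stem cell state, and when Nodal and BMP signals are low the default fate is neural. Neuroepithelial cells then acquire a position along the body axis, where WNT, FGF and retinoic acid favour posterior and dorsal identities, and where the front end gives rise to the eye field and the telencephalon.

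RNA was measured by bulk MARS-seq, which reads tags close to the 3' end of each transcript, and the deposited values are raw counts per gene. Gene counts summed to between 2586073 and 3365342 per Day 5 LIS1+/- library and to between 1839347 and 2984093 per hESC LIS1+/- library. The share of alignments set aside as not unique was 31.7% to 33.7% at Day 5, against 34.9% to 52.5% in hESC. Day 5 LIS1+/- replicate 2 stood apart from the other Day 5 libraries by a trend of its counts with GC content (slope -0.0298 log2 units per percent GC), and values without it are given beside the genes named below as called that were not called when it was left out. The check was not made for L1TD1, CDH4, CDH6, PTBP2, NOVA1, MITF, WNT4 and AFP. The files of each stage carry a pool number of their own, so stage and pool cannot be told apart. In bulk RNA, fewer cells of a type and less RNA per cell cannot be told apart either.

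Levels are given below in CPM, counts scaled to a common library total by TMM, in the order of replicates 1, 2 and 3. Changes are log2 fold changes, Day 5 over hESC, ± the standard error (SE) of the fit, so that a negative value means lower at Day 5. A gene was called higher or lower where its p, adjusted over all 12215 tested genes, was under 0.05. A gene was tested where it had enough counts in at least 1 of the 6 groups, so a gene that is close to 0 in one group was tested because of its level in another. Where a group held no count, the fold is a lower bound against a floor of 3 counts over its libraries, and where it held 1 to 3 counts a ratio of pooled counts stands in for the fold, with an interval that covers counting error only.

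PAFAH1B1 itself was measured in every library and was higher at Day 5. It had 89, 105 and 84.3 CPM at Day 5, against 61.2, 51.4 and 55.9 CPM in hESC, a log2 fold change of 0.72 ± 0.20 (adjusted p = 0.00495). The 3 Day 5 libraries lay above the 3 hESC libraries. In LIS1+/+ cells its log2 fold change was 0.63, and the difference between the steps was 0.09 ± 0.28 (adjusted p = 0.935). Tags near the 3' end may lie outside the altered part of PAFAH1B1 and so do not check the allele.

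The step changed a large part of the transcriptome. Of 12215 tested genes 5341 were called (43.7%), 2733 of them higher (22.4%) and 2608 lower (21.4%) at Day 5. The 3 Day 5 and 3 hESC libraries did not overlap in 6208 genes (50.8%). At least 8-fold changes were called in 406 higher and 471 lower genes, and at least 32-fold changes in 136 higher and 195 lower genes, while the median log2 fold change of all tested genes was 0.06. The 37 gene lists described below are read against these shares.

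**Figure D1:**
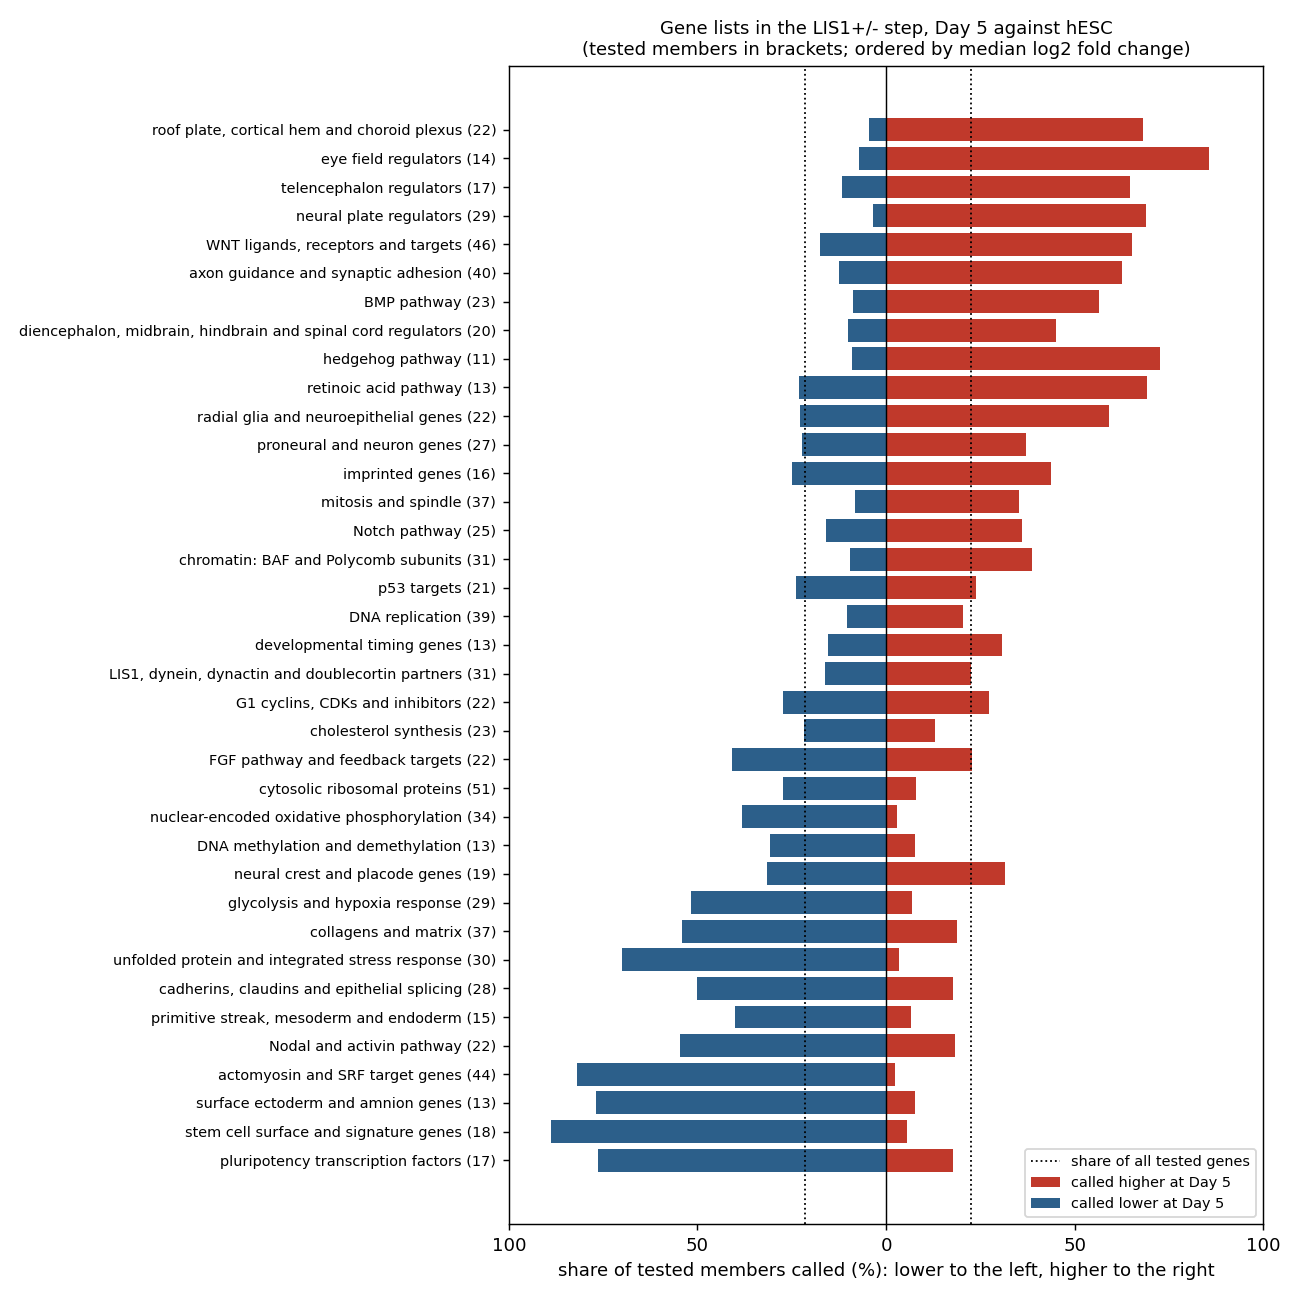
Share of the tested members of each of 37 gene lists called lower (blue, to the left) or higher (red, to the right) at Day 5 in LIS1+/- cells, in percent, with the number of tested members in brackets. Dotted lines mark the shares of all tested genes, 21.4% lower and 22.4% higher, and the lists run from the highest median log2 fold change at the top to the lowest at the bottom, where the stem cell lists stand.

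Most stem cell genes tested fell at Day 5. POU5F1, which encodes OCT4, the transcription factor at the centre of pluripotency, was 63-fold lower, and the DNA methyltransferase gene DNMT3B 11.6-fold. SOX2, which serves both stem cells and neural progenitors, was higher. Of 20 pluripotency transcription factors 17 were tested, and 13 were lower and 3 higher, with a median log2 fold change of -4.53, or -3.30 with members that had no count at their bound. The surface and signature genes of stem cells gave 16 lower and 1 higher of 18 tested, with a median of -4.34.

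POU5F1 had 8.60, 7.31 and 5.85 CPM at Day 5, against 509, 400.3 and 458 CPM in hESC, a log2 fold change of -5.98 ± 0.20 (adjusted p = 4.89e-18). Its reads may be shared with near-identical copies such as POU5F1B, as may those of NANOG. NANOG, its partner in the pluripotency network, had 0 CPM in each library at Day 5, against 3.79, 4.96 and 3.61 CPM in hESC, and was at least 12.1-fold lower (adjusted p = 0.000601). ZSCAN10, a zinc finger factor of the same network, had 1.87, 6.58 and 8.78 CPM at Day 5, against 559, 644 and 588 CPM in hESC (-6.65 ± 0.39, adjusted p = 2.47e-11). VRTN had 19.4, 27.1 and 16.4 CPM at Day 5, against 578, 546 and 530.2 CPM in hESC (-4.72 ± 0.27, adjusted p = 8.11e-13), and DPPA4 kept more of its level, with 68, 95 and 74.3 CPM at Day 5, against 461, 523 and 589 CPM in hESC (-2.73 ± 0.19, adjusted p = 8.15e-12). In all 5 genes every Day 5 library lay below every hESC library. SALL4 was not called (log2 fold change -0.49 ± 0.21, adjusted p = 0.0588). It passed the threshold without hESC replicate 2 (adjusted p = 0.0393) and without Day 5 replicate 3 (adjusted p = 0.0416).

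The 3 members called higher were SOX2, MYCN and TBX3. SOX2 had 577, 808 and 646 CPM at Day 5, against 465, 466 and 489 CPM in hESC (0.52 ± 0.17, adjusted p = 0.0163), and every Day 5 library lay above every hESC library. MYCN, a relative of MYC, had 306, 403 and 288 CPM at Day 5, against 244, 234 and 254 CPM in hESC (0.44 ± 0.16, adjusted p = 0.0254), and TBX3, a T-box factor, 5.98, 6.95 and 1.76 CPM at Day 5, against 0, 1.35 and 0.361 CPM in hESC. None of the 3 was called without Day 5 replicate 2, where SOX2 had a log2 fold change of 0.37 (adjusted p = 0.0938), MYCN 0.29 (adjusted p = 0.164) and TBX3 2.55 (adjusted p = 0.0672). MYCN was also not called without hESC replicate 1 (adjusted p = 0.0564) or 2 (0.0811), nor was TBX3 without hESC replicate 1 (0.0742), hESC replicate 3 (0.0934) or Day 5 replicate 1 (0.0548). Without hESC replicate 1 a single member of the list was called higher.

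Among surface and signature genes, PODXL, which encodes the sialomucin podocalyxin that carries the TRA-1 epitopes, had 63.2, 59.6 and 59.98 CPM at Day 5, against 1352, 1753 and 1781 CPM in hESC (-4.74 ± 0.18, adjusted p = 4.86e-17). The tetraspanin gene CD9 had 4.49, 7.31 and 3.22 CPM at Day 5, against 298, 289 and 303 CPM in hESC (-5.90 ± 0.23, adjusted p = 6.39e-17). L1TD1, an RNA-binding protein derived from a LINE-1 element, had 6.73, 1.46 and 1.76 CPM at Day 5, against 455, 452 and 479 CPM in hESC (-7.15 ± 0.38, adjusted p = 9.65e-13). The noncoding RNA ESRG, abundant in human stem cells, had 9.34, 11.3 and 8.19 CPM at Day 5, against 1439, 1317 and 1309 CPM in hESC (-7.14 ± 0.43, adjusted p = 1.36e-09). These 4 genes separated the stages without overlap. SFRP2, a secreted WNT modulator, was the 1 member of this list that was higher, with 5010.5, 5004 and 5738 CPM at Day 5, against 1002, 849.8 and 941 CPM in hESC (2.50 ± 0.18, adjusted p = 1.1e-11), and TERT, the telomerase subunit, was not called (-0.27 ± 0.40, adjusted p = 0.608). DNMT3B, counted with the methylation enzymes, had 90.1, 112 and 107 CPM at Day 5, against 1176, 1192 and 1223 CPM in hESC (-3.54 ± 0.16, adjusted p = 1.9e-15).

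**Figure D2:**
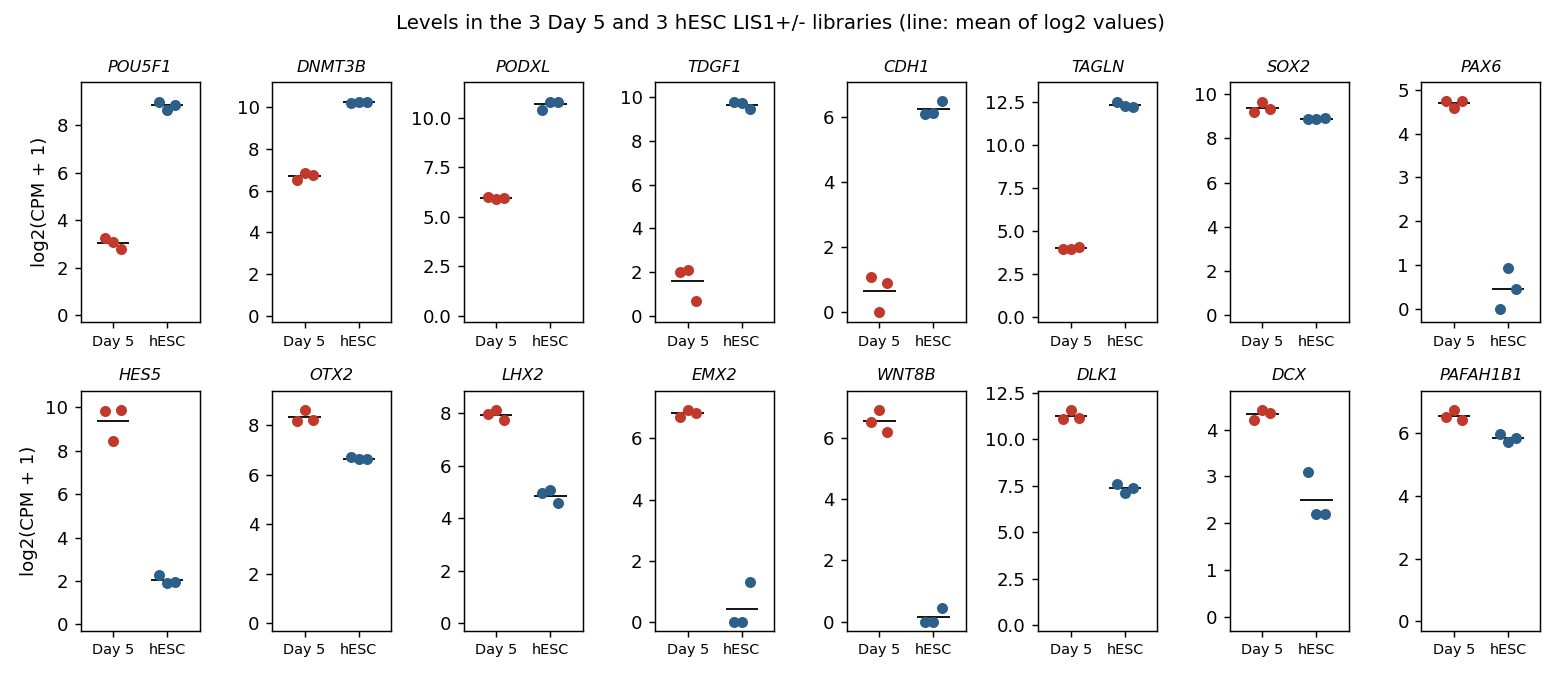
Levels of 16 genes in the 3 Day 5 (red, left) and 3 hESC (blue, right) LIS1+/- libraries, as log2(CPM + 1) on an axis of its own for each gene, with a line at the mean of the log2 values. POU5F1, DNMT3B, PODXL, TDGF1, CDH1 and TAGLN are lower at Day 5 and the other 10 genes are higher, with no overlap between the stages.

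The ligand, the co-receptor and feedback targets of the Nodal pathway fell. Of 22 tested members 12 were lower and 4 higher, with a median log2 fold change of -1.69. NODAL, the ligand, had 0, 1.83 and 0.878 CPM at Day 5, against 25.9, 20.3 and 17.7 CPM in hESC (-4.47 ± 0.53, adjusted p = 1.28e-07). Its co-receptor TDGF1, also called CRIPTO, had 2.99, 3.29 and 0.585 CPM at Day 5, against 889.6, 846 and 709 CPM in hESC (-8.52 ± 0.35, adjusted p = 2.64e-14). Reads of TDGF1 may be shared with its processed copy TDGF1P3. FOXH1, the DNA-binding partner of the SMAD proteins, had 6.35, 8.04 and 4.68 CPM at Day 5, against 289.8, 266 and 277 CPM in hESC (-5.46 ± 0.51). The LEFTY inhibitors are direct targets that feed back on Nodal. LEFTY1 had 0.748, 0.366 and 0.293 CPM at Day 5, against 229.8, 255 and 285 CPM in hESC (-9.00 ± 0.43), and LEFTY2 had 17.2, 12.1 and 10.2 CPM at Day 5, against 257, 165 and 192 CPM in hESC (-3.96 ± 0.33). In these 5 genes the highest Day 5 library lay below the lowest hESC library. The higher members included SMAD3, a signal transducer (1.16), FST, which binds activin (0.83), and PCSK6, a protease that matures the ligand (2.07). The receptors ACVR1B, ACVR2A and ACVR2B and the transducers SMAD2 and SMAD4 were not called.

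CDH1 and EPCAM fell and CDH2 rose. The classical exchange of CDH1 (E-cadherin) for CDH2 (N-cadherin) is a mark of the neural plate in vertebrates. CDH1 had 1.12, 0 and 0.878 CPM at Day 5, against 67.6, 69.9 and 89.1 CPM in hESC (-6.71 ± 0.47, adjusted p = 2.97e-11), and CDH2 had 641, 803 and 748 CPM at Day 5, against 398, 427 and 453 CPM in hESC (0.78 ± 0.18, adjusted p = 0.000933). The stages did not overlap in either gene, with CDH1 low and CDH2 high at Day 5. EPCAM, an epithelial adhesion molecule, had 8.97, 17.2 and 6.44 CPM at Day 5, against 1005, 989 and 1122 CPM in hESC (-6.60 ± 0.41). The epithelial splicing regulators ESRP1 and ESRP2 were lower, ESRP2 with 0.748, 0.731 and 0 CPM at Day 5, against 75.1, 81.6 and 86.2 CPM in hESC (-7.33 ± 0.50). CLDN7, a tight junction claudin, held 1 count over the Day 5 libraries, and its hESC to Day 5 ratio of pooled counts was 350.5 (95% counting interval 62.4 to 13895). Of 28 tested cadherins, claudins and splicing regulators 14 were lower and 5 higher, and the higher ones were CDH2, CDH4, CDH6 and the splicing regulators PTBP2 and NOVA1.

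Genes of contractile actomyosin, many of them targets of the transcription factor SRF, were lower with few exceptions. Of 44 tested members 36 were lower and 1 higher, with a median log2 fold change of -1.84. TAGLN, the actin-binding protein transgelin, had 14.6, 14.6 and 15.8 CPM at Day 5, against 5929, 4999 and 4848 CPM in hESC (-8.45 ± 0.46, adjusted p = 1.35e-10). The muscle actin gene ACTA1 had 0.374, 1.10 and 0.293 CPM at Day 5, against 496, 449 and 427 CPM in hESC (-9.54 ± 0.34, adjusted p = 2.5e-17). VCL, which encodes the focal adhesion protein vinculin, had 282, 309 and 279.7 CPM at Day 5, against 2360.0, 2442 and 2466 CPM in hESC (-3.06 ± 0.14, adjusted p = 3.28e-15). In each of the 3 genes the stages were apart. ACTG2, the enteric smooth muscle actin, had a hESC to Day 5 ratio of pooled counts of 2606 (95% counting interval 467 to 102995). ACTB, the common cytoplasmic actin, fell less (-1.46). Reads of actin genes may be shared among near-identical copies. The 1 higher member, LMOD1, an actin nucleator, had a log2 fold change of 2.02 ± 0.56 and was not called without Day 5 replicate 3 (adjusted p = 0.0531).

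Matrix genes were mostly lower, with 20 lower and 7 higher of 37 tested. COL4A1 (-2.00), a basement membrane collagen, COL18A1 (-1.99) and COL9A3 (-4.76) were lower. COL2A1, a fibrillar collagen also found in early neuroepithelium, rose, with 336, 186 and 264 CPM at Day 5, against 34.1, 28.4 and 36.8 CPM in hESC (2.98 ± 0.20, adjusted p = 2.74e-12). The 3 Day 5 libraries were the higher ones throughout.

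Most neural plate genes tested rose. Of 29 tested regulators 20 were higher and 1 lower, with a median log2 fold change of 2.47, or 2.41 with members without counts at their bound. PAX6, a determinant of human neuroectoderm, had 25.8, 23 and 25.7 CPM at Day 5, against 0, 0.902 and 0.361 CPM in hESC, and its Day 5 to hESC ratio of pooled counts was 54.6 (95% counting interval 18.4 to 267) (adjusted p = 8.48e-10). SOX1, an early marker of neural commitment, had 5.23, 11.3 and 18.7 CPM at Day 5, against 0.631, 0.451 and 0 CPM in hESC, a ratio of 40.6 (95% counting interval 11 to 339). HES5, a Notch target of neural progenitors, had 909, 352 and 933 CPM at Day 5, against 3.79, 2.70 and 2.89 CPM in hESC (7.88 ± 0.76, adjusted p = 9.76e-07). All Day 5 libraries exceeded all hESC libraries in these genes, but Day 5 replicate 2 held the lowest HES5 level of its group. Without that library the log2 fold change of HES5 was 8.22 (adjusted p = 1.88e-06).

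Genes of the front of the neural plate were among those that rose. OTX2, the fore- and midbrain homeobox factor that stem cells also express, had 286, 386 and 296 CPM at Day 5, against 104, 96.9 and 97 CPM in hESC (1.70 ± 0.19, adjusted p = 5.15e-08), and its paralog OTX1 had 376, 307 and 384 CPM at Day 5, against 5.05, 2.25 and 1.44 CPM in hESC (7.06 ± 0.29, adjusted p = 1.81e-16). NR2F1, a nuclear receptor of cortical patterning, had 709, 672 and 795 CPM at Day 5, against 16.4, 8.11 and 19.8 CPM in hESC (5.60 ± 0.22, adjusted p = 8.28e-17). GLI3, a hedgehog effector that patterns the dorsal forebrain, had 104, 94.3 and 112 CPM at Day 5, against 17, 17.6 and 18.4 CPM in hESC (2.54 ± 0.20). No Day 5 library of these 4 genes fell within the hESC range. Strand use in counting was not given in the sources used here. Reads of OTX2, SIX3, EMX2 and SOX2 may include those of overlapping or antisense RNAs. SOX3, SOX4, SOX9, ZIC2, ZIC4, ZIC5, SALL1 and SALL3 were not called.

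Among eye field regulators 12 of 14 tested were higher and 1 lower, with a median of 3.77 (3.31 at the bounds). LHX2, a LIM homeobox factor shared by eye field and telencephalon, had 251, 276 and 212 CPM at Day 5, against 29.7, 32.5 and 22.7 CPM in hESC (3.13 ± 0.32, adjusted p = 6.9e-08). SIX3, which represses WNT signalling in the forebrain of vertebrates, had 346, 270.2 and 291 CPM at Day 5, against 129, 113 and 135 CPM in hESC (1.27 ± 0.21, adjusted p = 1.75e-05). RAX, needed for the eye, had 237, 60.3 and 215 CPM at Day 5, against 6.31, 6.31 and 10.8 CPM in hESC (4.40 ± 0.62), and Day 5 replicate 2 again held the lowest level of its group. PAX2, a factor of the optic stalk, had 39.2, 35.1 and 28.4 CPM at Day 5, against 4.42, 0 and 0.721 CPM in hESC (4.56 ± 0.61). Day 5 and hESC libraries were apart in all 4. MITF, of pigment cells, was at least 11.2-fold higher. HESX1, a homeobox repressor found in stem cells too, was the lower member (-4.40 ± 0.57).

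Telencephalon regulators were higher in 11 of 17 tested and lower in 2, with a median of 3.19. EMX2, a homeobox factor of the dorsal telencephalon, had 103, 121 and 112 CPM at Day 5, against 0, 0 and 1.44 CPM in hESC (7.43 ± 0.47, adjusted p = 3.21e-11). DMRTA2 had 204, 175 and 216 CPM at Day 5, against 1.89, 0.451 and 2.52 CPM in hESC (6.86 ± 0.41, adjusted p = 2.78e-12). NR2E1, also called TLX, had 35.9, 43.9 and 55.9 CPM at Day 5, against 0.631, 0 and 0 CPM in hESC, a ratio of pooled counts of 303 (95% counting interval 54.1 to 12001). Day 5 was the higher stage in every library of these 3. The lower members were BCL11A, a zinc finger factor with 0 CPM in each library at Day 5, against 10.7, 16.7 and 19.5 CPM in hESC (at least 48.3-fold lower), and its paralog BCL11B, with a hESC to Day 5 ratio of 6.27 (95% counting interval 1.75 to 34). BCL11B was not called without hESC replicate 1 (adjusted p = 0.0630), hESC replicate 2 (0.160), Day 5 replicate 1 (0.0812) or Day 5 replicate 3 (0.158).

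Regulators of more posterior levels included genes called in both directions. Of 38 listed genes from diencephalon to spinal cord 20 were tested, 9 higher and 2 lower, with a median of 1.28 (1.15 at the bounds). PAX7 had 8.97, 19 and 5.85 CPM at Day 5, against 0 CPM in each library in hESC (at least 23.8-fold higher). BARHL1, a homeobox factor of the diencephalon, was at least 26.8-fold higher. The lower members were IRX2, with 88.2, 86.6 and 79.6 CPM at Day 5, against 607, 537 and 509 CPM in hESC (-2.70 ± 0.25, adjusted p = 4.47e-09), and IRX4, at least 17.5-fold lower, both of the Iroquois family. GBX2, a factor of the anterior hindbrain, was not called (0.13 ± 0.39, adjusted p = 0.807). Of the 8 HOX genes in the list, which mark hindbrain and spinal cord, none was tested. In 5 of them none of the 6 libraries held a count, and the highest group mean of any was 1.44 CPM.

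Most tested WNT ligands rose at Day 5 and the frizzled receptors changed in both directions. Of 46 tested members of the pathway 30 were higher and 8 lower, with a median log2 fold change of 1.92 (1.78 at the bounds). WLS, the carrier that takes WNT proteins to the cell surface, had 523, 814 and 652 CPM at Day 5, against 29.7, 29.8 and 27.8 CPM in hESC (4.51 ± 0.24, adjusted p = 1.04e-13). WNT8B, a ligand of the cortical hem, had 90.5, 119.5 and 72.9 CPM at Day 5, against 0, 0 and 0.361 CPM in hESC, a ratio of pooled counts of 609 (95% counting interval 109 to 24091). WNT7B had 172, 128 and 238 CPM at Day 5, against 0, 0 and 2.52 CPM in hESC (7.36 ± 0.55), and WNT2B had 121, 230.3 and 135 CPM at Day 5, against 2.53, 1.80 and 6.49 CPM in hESC (5.37 ± 0.43). These 4 genes were high in every Day 5 library. Of 11 tested ligands 9 were higher, and WNT5A (0.36 ± 1.06, adjusted p = 0.809) and WNT7A (adjusted p = 0.516) did not pass.

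All 10 frizzled receptors were tested, and 6 were higher and 4 lower. FZD7, the main frizzled of human stem cells, had 125, 141 and 125 CPM at Day 5, against 611, 686 and 793 CPM in hESC (-2.42 ± 0.15, adjusted p = 1.31e-12), and FZD5 (-2.19), FZD6 (-2.73) and FZD8 (-1.16) were also lower. FZD10 (3.59) and FZD3 (3.07) had the largest rises of the family, followed by FZD1 (2.56), FZD9 (1.80), FZD2 (1.48) and FZD4 (1.36). LEF1, a nuclear effector that is itself a target, had 71.8, 65.8 and 81.3 CPM at Day 5, against 3.16, 4.96 and 2.52 CPM in hESC (4.36 ± 0.30), and AXIN2, a negative feedback target, had a log2 fold change of 0.86 ± 0.21. DKK1, a secreted antagonist, had 65.8, 62.5 and 41.3 CPM at Day 5, against 0.631, 0.902 and 1.80 CPM in hESC (5.49 ± 0.45). The repressor TCF7L1, abundant in stem cells, was lower (-1.94).

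**Figure D3:**
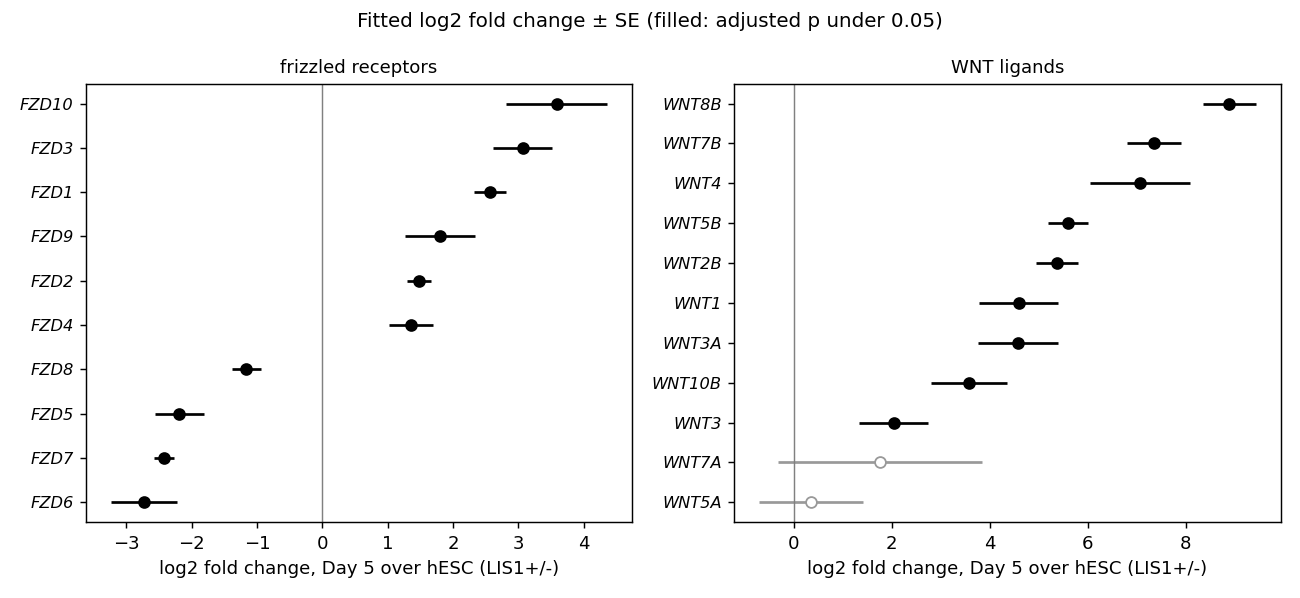
Fitted log2 fold change (Day 5 over hESC in LIS1+/- cells, with SE bars) of the 10 frizzled receptors and the 11 tested WNT ligands; filled points passed at an adjusted p under 0.05. The frizzled receptors lie on both sides of 0, from FZD6 at -2.73 to FZD10 at 3.59, and the 9 filled WNT points lie to the right. Values of ligands with next to no count in hESC, such as WNT8B and WNT4, depend on the prior count of the fit.

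BMP pathway genes were higher in 13 of 23 tested members and lower in 2, with a median of 1.37. ID2 and ID3, which encode inhibitors of bHLH factors and are direct BMP targets, rose, ID2 with 184, 242 and 177 CPM at Day 5, against 18.9, 15.3 and 21.6 CPM in hESC (3.42 ± 0.19) and ID3 with 1436, 1318 and 1406 CPM at Day 5, against 479, 356 and 404 CPM in hESC (1.75 ± 0.14). MSX1, a homeobox target of the dorsal midline, had 75.9, 139 and 45.4 CPM at Day 5, against 1.89, 1.80 and 1.80 CPM in hESC (5.53 ± 0.67). The antagonist NOG had 41.1, 43.5 and 29.6 CPM at Day 5, against 3.79, 4.96 and 2.52 CPM in hESC (3.35 ± 0.40). Each of these was high in all 3 Day 5 libraries. The lower members were the ligand BMP4, with 37.8, 26.3 and 26.9 CPM at Day 5, against 78.9, 80.7 and 81.9 CPM in hESC (-1.41 ± 0.37), and the decoy receptor BAMBI (-1.86 ± 0.37). Without Day 5 replicate 2, 4 members were called lower. The overlapping list of roof plate, cortical hem and choroid plexus genes had 15 of 22 tested members higher and 1, BMP4, lower, with a median of 3.77 (1.85 with members without counts at their bound).

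Notch signalling keeps neural progenitors from maturing, through repressors of the HES and HEY families. Of 25 tested pathway members 9 were higher and 4 lower, with a median of 0.43. The ligand genes DLL1, with 115, 129 and 131 CPM at Day 5, against 9.47, 5.86 and 5.41 CPM in hESC (4.23 ± 0.27), and JAG1, with 118, 181 and 133 CPM at Day 5, against 36.6, 35.6 and 49 CPM in hESC (1.82 ± 0.22), rose, as did LFNG, which encodes a glycosyltransferase that tunes the receptor, with 154, 145 and 178 CPM at Day 5, against 15.8, 21.2 and 16.2 CPM in hESC (3.16 ± 0.22). Day 5 and hESC libraries did not overlap in any of the 3. Of the targets, HES4 had 575, 301 and 555 CPM at Day 5, against 94.1, 69 and 55.2 CPM in hESC (2.73 ± 0.32, adjusted p = 1.25e-06), and HES1 had 239.6, 201 and 252 CPM at Day 5, against 98.5, 80.7 and 79.7 CPM in hESC (1.42 ± 0.17, adjusted p = 1.53e-07). HEY1 was higher too (2.48 ± 0.40). The stages were again apart in HES4 and HES1, and Day 5 replicate 2 had the lowest level of its group in both. The lower members were NOTCH3 (-0.68 ± 0.22), HEY2 (-1.47 ± 0.49), MAML1 (-0.49 ± 0.17) and NUMBL (-0.83 ± 0.26). None of the 4 kept the call with each of the 6 libraries left out in turn. NOTCH3 (-0.46, adjusted p = 0.0821) and NUMBL (-0.64, adjusted p = 0.0670) were not called without Day 5 replicate 2, nor HEY2 (adjusted p = 0.0739) and MAML1 (0.151) without Day 5 replicate 1. NUMBL (0.0811) and MAML1 (0.0507) also lost the call without hESC replicate 1, and NOTCH3 (0.0537), HEY2 (0.0526) and MAML1 (0.0540) without hESC replicate 3.

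Promoter sequence was compared for the HES and HEY repressors, since RBPJ, the DNA-binding partner of Notch, recognises GTGGGAA. The search covered the RefSeq promoter windows of GRCh38.p14, on both strands (TTCCCAC being the reverse complement). A window was available for 9 genes of the family and not for HEY1. The letters occurred in 5 of the 9 windows (55.6%), against 2194 of 35116 windows of all genes (6.25%). A match is a description of the letters and does not show that RBPJ binds there. The windows of the 3 HES genes that rose and are described above follow, read 5' to 3' along the gene with the motif in capitals.
HES5, chr1:2530214-2530513, minus strand, motifs starting at -224 and -81 relative to the transcription start: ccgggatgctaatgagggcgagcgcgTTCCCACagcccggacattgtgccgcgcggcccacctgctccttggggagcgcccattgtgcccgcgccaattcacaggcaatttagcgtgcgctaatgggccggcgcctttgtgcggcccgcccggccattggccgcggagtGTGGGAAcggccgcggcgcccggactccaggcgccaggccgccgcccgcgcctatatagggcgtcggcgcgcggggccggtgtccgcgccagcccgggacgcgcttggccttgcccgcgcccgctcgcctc
HES4, chr1:1000048-1000347, minus strand, motif starting at -77: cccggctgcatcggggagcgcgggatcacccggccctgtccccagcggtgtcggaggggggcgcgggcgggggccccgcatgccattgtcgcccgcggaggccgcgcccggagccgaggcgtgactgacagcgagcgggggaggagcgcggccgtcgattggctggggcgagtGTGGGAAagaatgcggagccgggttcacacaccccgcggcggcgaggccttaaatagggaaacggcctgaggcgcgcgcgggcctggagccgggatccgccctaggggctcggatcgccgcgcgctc
HES1, chr3:194135898-194136197, plus strand, motif starting at -85: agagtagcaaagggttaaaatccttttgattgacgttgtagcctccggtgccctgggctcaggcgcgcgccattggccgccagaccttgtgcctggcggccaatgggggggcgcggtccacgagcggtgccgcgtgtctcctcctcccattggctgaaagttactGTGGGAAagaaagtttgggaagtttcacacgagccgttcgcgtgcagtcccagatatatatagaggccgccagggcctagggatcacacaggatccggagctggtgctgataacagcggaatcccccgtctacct
HEY2, which was lower, and HEYL also held the letters in their windows. The windows of HES2, HES3, HES6 and HES7 did not.

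Hedgehog pathway genes were higher in 8 of 11 tested members and lower in 1, with a median of 0.97. GAS1, a co-receptor, had 192, 189.7 and 281 CPM at Day 5, against 7.58, 5.41 and 5.05 CPM in hESC (5.23 ± 0.23), and BOC, another co-receptor, had 181, 268 and 181 CPM at Day 5, against 15.2, 14.4 and 7.57 CPM in hESC (4.12 ± 0.22). PTCH1, receptor and target (0.97 ± 0.24), was also higher. GLI1, a transcriptional target of active signalling, was the lower member, with 9.34, 6.58 and 5.56 CPM at Day 5, against 30.9, 30.7 and 23.4 CPM in hESC (-1.98 ± 0.40, adjusted p = 0.000229). Levels of GAS1 and BOC were high, and those of GLI1 low, in every Day 5 library.

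Retinoic acid genes gave 9 higher and 3 lower of 13 tested, with a median of 0.86. The lower ones were CYP26A1, which degrades retinoic acid, with 2.24, 0 and 0.293 CPM at Day 5, against 159.7, 151 and 151 CPM in hESC (-7.51 ± 0.74, adjusted p = 3.4e-07), DHRS3, which reduces its precursor, with 1.495, 0.366 and 2.34 CPM at Day 5, against 132, 41.5 and 137 CPM in hESC (-6.10 ± 0.53), and the receptor gene RARG (-3.34 ± 0.52). The synthesis enzyme RDH10 had 40.4, 40.2 and 42.7 CPM at Day 5, against 3.79, 5.41 and 10.5 CPM in hESC (2.57 ± 0.32), and CRABP2, the binding protein that carries retinoic acid to the nucleus, had 1228, 824 and 1245 CPM at Day 5, against 284, 279 and 296 CPM in hESC (1.94 ± 0.23). Day 5 levels were low throughout for CYP26A1 and DHRS3 and high throughout for RDH10 and CRABP2.

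FGF pathway genes and feedback targets were lower in 9 and higher in 5 of 22 tested members, with a median of -0.17. The ligand FGF2 (-2.80 ± 0.42) was lower. So were SPRY4, a feedback inhibitor, with 17.2, 20.1 and 8.19 CPM at Day 5, against 111, 107 and 103 CPM in hESC (-2.83 ± 0.29), and ETV4, an ETS factor induced by FGF, with 17.9, 13.2 and 13.5 CPM at Day 5, against 85.2, 70.3 and 86.9 CPM in hESC (-2.44 ± 0.27). FLRT3, a membrane protein that binds FGF receptors, was higher (4.24 ± 0.47). The count of higher members was 3 without each hESC replicate and 2 without Day 5 replicate 2. Besides FLRT3 it held FGFR2, SPRED1, SPRED2 and SPRED3. Without Day 5 replicate 2 FGFR2 (0.47, adjusted p = 0.0988), SPRED1 (0.88, adjusted p = 0.114) and SPRED3 (0.84, adjusted p = 0.0520) were not called. FGFR2 also lost the call without hESC replicate 1 or 2, SPRED1 without any hESC replicate or Day 5 replicate 3, and SPRED3 without hESC replicate 2 or 3 or Day 5 replicate 1 (adjusted p 0.0511 to 0.0846).

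Radial glia and neuroepithelial genes were higher in 13 and lower in 5 of 22 tested members, with a median of 0.77. TTYH1, a membrane protein of neural progenitors, had 1409.9, 1185 and 1584 CPM at Day 5, against 109, 93.3 and 83.7 CPM in hESC (3.87 ± 0.19, adjusted p = 1.19e-14). DLK1, an imprinted Notch-like protein, had 2211, 3009.8 and 2309.8 CPM at Day 5, against 189, 138 and 166 CPM in hESC (3.93 ± 0.25, adjusted p = 1.13e-11). FABP7, a lipid carrier of radial glia, was higher (3.64 ± 0.61). VIM, which encodes the intermediate filament vimentin, was lower, with 2674, 3087 and 3007 CPM at Day 5, against 6493, 6625 and 6633 CPM in hESC (-1.17 ± 0.14, adjusted p = 1.11e-07), and so was PROM1 (-2.27 ± 0.28). The stages did not overlap in TTYH1, DLK1 or VIM.

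Neuron genes moved in both directions, with 10 higher and 6 lower of 27 tested and a median of 0.56. DCX, the doublecortin of migrating neurons, had 17.6, 20.5 and 19.6 CPM at Day 5, against 7.58, 3.61 and 3.61 CPM in hESC (2.03 ± 0.35, adjusted p = 3.44e-05), all Day 5 libraries being higher. The proneural gene NEUROG1 rose and was at least 4.47-fold higher. INSM1, a factor of newborn neurons, had 2.99, 4.39 and 2.93 CPM at Day 5, against 124, 105 and 139 CPM in hESC (-5.16 ± 0.53, adjusted p = 2.62e-07), and GAP43, a growth cone protein, had 50.8, 61.4 and 33.6 CPM at Day 5, against 167, 157 and 149 CPM in hESC (-1.70 ± 0.20). TUBB3, the neuronal tubulin that stem cells also express, had 361, 264 and 380.1 CPM at Day 5, against 549, 491 and 502 CPM in hESC (-0.62 ± 0.18, adjusted p = 0.00622). The last 3 were low in every Day 5 library.

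Axon guidance and synaptic adhesion genes were higher in 25 and lower in 5 of 40 tested members, with a median of 1.39. All 5 tested ephrins, membrane ligands of the Eph receptors, were higher. EFNB3 had 134, 221 and 159.8 CPM at Day 5, against 22.7, 24.3 and 23.4 CPM in hESC (2.86 ± 0.21, adjusted p = 2.8e-11), without overlap. Of 7 Eph receptors 5 were higher, EPHA7 among them (3.55 ± 0.31). EPHA2, which stem cells carry, was lower (-0.69 ± 0.21), but not without Day 5 replicate 2 (-0.49, adjusted p = 0.0645). The other lower members were SEMA6A (-1.66), NRP2 (-3.21), NLGN4X (-2.30) and SEMA3C (-1.78). SEMA3C was not called without hESC replicate 3 (adjusted p = 0.218), Day 5 replicate 2 (0.0665) or Day 5 replicate 3 (0.149).

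Markers of other lineages were low at Day 5. Of 15 tested genes of streak, mesoderm and endoderm 6 were lower and 1, the chemokine receptor CXCR4, higher (3.41 ± 0.35). Without hESC replicate 3 or Day 5 replicate 3 the higher ones were 2. TWIST1, a mesenchyme factor, had 2.24, 0.731 and 2.34 CPM at Day 5, against 96, 80.7 and 75.4 CPM in hESC (-5.50 ± 0.72), and AFP, a yolk sac and liver protein, had a log2 fold change of -6.03 ± 1.19. Summed over the marker sets, endoderm and liver genes came to 9.87 to 15.2 CPM at Day 5, against 93.0 to 148 CPM in hESC, with SOX17, APOA2 and TTR at 0 in both stages and FOXA2 at 0 at Day 5. Mesoderm and mesenchyme genes summed to 12.1 to 20.5 CPM at Day 5, against 244 to 261 CPM in hESC, with DCN at 0 in both stages and T (brachyury) and PRRX1 at 0 at Day 5. Endothelial genes summed to 9.07 to 20.1 CPM at Day 5, against 63.8 to 67.6 CPM in hESC, with PECAM1 and CDH5 at 0 in both stages and ERG at 0 at Day 5. Blood genes summed to 1.495 to 5.27 CPM at Day 5, against 1.89 to 3.16 CPM in hESC, with HBG1 at 0 in both stages and RUNX1 and SPI1 at 0 at Day 5. The 1 blood marker that was tested was called higher at Day 5, and the sums of the stages overlapped. Other markers were at 0 in hESC but not at Day 5, namely HNF4A (endoderm), LUM (mesenchyme) and PTPRC (blood). The part of these levels in the falls of mesenchymal collagens and other shared genes was not tested.

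Marker sets of stem cells and of neuroepithelium, a cell type that the sample titles do not name, held counts in both stages. The 10 neuroepithelium markers summed to 3602 to 3965 CPM at Day 5, against 1147 to 1219 CPM in hESC, and the 8 stem cell markers summed to 577 to 715 CPM at Day 5, against 5527 to 6044 CPM in hESC. Of the neuroepithelium markers 1, ZIC1, was under 1 CPM on average at Day 5 and at 0 in hESC. Neuron markers summed to 352 to 438 CPM at Day 5, against 663 to 737 CPM in hESC. Most of this sum was TUBB3, which stem cells also express. Of 5 tested neuron markers 1, DCX, was called higher and 3 lower. ELAVL4 and NEUROD1 were at 0 in hESC but not at Day 5. Neural crest markers came to 30.4 to 47.2 CPM at Day 5, against 110 to 155 CPM in hESC. Of these 7 markers 2 were called higher and 2 lower, and TFAP2A, TFAP2B and PAX3 were at 0 in hESC but not at Day 5. Within the crest and placode list 6 of 19 tested genes were higher and 6 lower, among them PAX3, with 5.23, 21.9 and 5.27 CPM at Day 5, against 0 CPM in each library in hESC (at least 22.8-fold higher). Surface ectoderm and amnion genes were lower in 10 of 13 tested and higher in 1, TFAP2A, which was at least 8.19-fold higher. Their marker set summed to 6.14 to 12.1 CPM at Day 5, against 18.4 to 19.6 CPM in hESC, with KRT5, KRT14 and ISL1 at 0 in both stages and GABRP at 0 at Day 5. TP63 and TFAP2A of this set were at 0 in hESC but not at Day 5.

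Some mitosis genes rose and the D-type cyclins fell. Mitosis genes were higher in 13 and lower in 3 of 37 tested members, with a median of 0.45. CENPF, a kinetochore protein of dividing cells, had 281, 321 and 298 CPM at Day 5, against 128, 110.0 and 143 CPM in hESC (1.24 ± 0.16, adjusted p = 5.17e-07), and MKI67, the proliferation antigen, had a log2 fold change of 0.96 ± 0.24. Day 5 libraries were the higher ones in CENPF. The 3 lower ones, AURKA, BUB1 and MAD2L1, numbered 1 without each hESC replicate and 0 without Day 5 replicate 1 or 3. Replication genes were higher in 8 and lower in 4 of 39 tested, with MCM2, a subunit of the replicative helicase, at 694, 543 and 701 CPM at Day 5, against 325, 305 and 420.2 CPM in hESC (0.88 ± 0.16) and its 5 partner subunits not called. The lower count was 1 without hESC replicate 2 or 3 and 2 without Day 5 replicate 2. All 3 D-type cyclins, which drive entry into the cycle, were lower, CCND1 with a log2 fold change of -0.77, CCND2 of -1.14 and CCND3 of -0.95. CDKN2A, the locus of the inhibitor p16, had 55.7, 21.6 and 31.3 CPM at Day 5, against 237, 232 and 243 CPM in hESC (-2.71 ± 0.24, adjusted p = 7.89e-10), and MYC had 22.8, 21.6 and 29 CPM at Day 5, against 131, 154 and 149 CPM in hESC (-2.56 ± 0.24, adjusted p = 2.38e-09). Both were low in every Day 5 library.

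Glycolysis and hypoxia response genes were lower in 15 and higher in 2 of 29 tested members, with a median of -0.64. LDHA, which makes lactate, had 58.3, 59.6 and 43 CPM at Day 5, against 448, 448 and 371 CPM in hESC (-2.98 ± 0.28, adjusted p = 2.04e-08). The glucose transporter gene SLC2A3 had 48.6, 33.3 and 41.8 CPM at Day 5, against 377, 417 and 359 CPM in hESC (-3.22 ± 0.21, adjusted p = 1.75e-12), while SLC2A1 (0.75 ± 0.15) and PFKM (0.57 ± 0.15) were the higher members. ADM, the hypoxia-inducible peptide adrenomedullin, had 5.61, 15 and 8.19 CPM at Day 5, against 622, 500.4 and 533 CPM in hESC (-5.84 ± 0.29, adjusted p = 4.96e-14). LDHA, SLC2A3 and ADM were low in all Day 5 libraries. Nuclear genes of oxidative phosphorylation were lower in 13 and higher in 1 of 34 tested (median -0.23), and the lower count was 7 without hESC replicate 1. COX6C (0.89 ± 0.24) was the higher member, joined by another without hESC replicate 2 or Day 5 replicate 2.

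Of 30 tested genes of the unfolded protein and integrated stress responses 21 were lower and 1 higher, with a median of -0.90. The integrated stress response controls genes of amino acid supply through the factor ATF4. ASNS, asparagine synthetase, had 63.5, 62.5 and 50.9 CPM at Day 5, against 498, 399 and 332 CPM in hESC (-2.80 ± 0.21, adjusted p = 4.51e-11). SLC3A2, a subunit of amino acid transporters, had 346, 280.0 and 346 CPM at Day 5, against 1883, 1895 and 1798 CPM in hESC (-2.52 ± 0.14, adjusted p = 1.33e-13). ATF4 itself had a log2 fold change of -1.29 ± 0.16. The stages were apart in ASNS and SLC3A2. The higher member, the chaperone HSPA5 (0.75 ± 0.27), was not called without hESC replicate 1 (adjusted p = 0.145), Day 5 replicate 2 (0.0594) or Day 5 replicate 3 (0.0683). Of 21 tested p53 targets 5 were higher and 5 lower, with PMAIP1, which promotes cell death, at a log2 fold change of -5.25. Ribosomal protein genes gave 4 higher and 14 lower of 51, the lower count being 7 without hESC replicate 1 and 9 without Day 5 replicate 3 and the higher count 2 without Day 5 replicate 2. Cholesterol synthesis genes gave 3 higher and 5 lower of 23.

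Chromatin genes changed in both directions. Of 31 tested BAF and Polycomb subunits 12 were higher and 3 lower. SMARCD3, a BAF subunit, had 60.6, 38.4 and 53.3 CPM at Day 5, against 8.84, 7.66 and 5.41 CPM in hESC (2.83 ± 0.28), PHC1, a Polycomb subunit, had 25.4, 18.3 and 17.6 CPM at Day 5, against 191, 194 and 239 CPM in hESC (-3.35 ± 0.23), and JARID2, which recruits Polycomb, had a log2 fold change of -2.53 ± 0.17. Of 13 methylation enzymes and cofactors 4 were lower, DNMT3A among them (-0.85 ± 0.16), and UHRF1 was higher (1.36 ± 0.23). LIN28A, a repressor of let-7 processing that times development, had 338, 394 and 466 CPM at Day 5, against 681, 873 and 628 CPM in hESC (-0.86 ± 0.21, adjusted p = 0.00185), and lay lower in each Day 5 library. Its list of timing genes had 4 members higher and 2 lower of 13, with 2 higher without hESC replicate 1, hESC replicate 2 or Day 5 replicate 2. Imprinted genes gave 7 higher and 4 lower of 16, with PLAGL1, a zinc finger factor, at a log2 fold change of 3.68 ± 0.26.

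Partners of LIS1 were called at rates near the background. Of 31 tested genes of LIS1, dynein, dynactin and doublecortin 7 were higher and 5 lower, with a median of 0.14. DYNLL1, a dynein light chain, had 268, 300.1 and 338 CPM at Day 5, against 709.6, 645 and 466 CPM in hESC (-1.004 ± 0.16, adjusted p = 1.68e-05), with all Day 5 libraries lower. DCTN3, a dynactin subunit, was higher (1.16 ± 0.23). DYNC1H1, the dynein heavy chain, was not called (-0.23 ± 0.17, adjusted p = 0.267), nor were NDE1 and NDEL1, which bind LIS1 directly. The lower members were 3 without hESC replicate 1 or Day 5 replicate 1.

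The largest changes among called genes with a mean of 10 CPM or more in their higher stage included the following. CYP1A1, an enzyme induced by the aryl hydrocarbon receptor, had 33.6, 23 and 38.9 CPM at Day 5, against 0 CPM in each library in hESC (at least 71-fold higher). C1orf61 had a Day 5 to hESC ratio of pooled counts of 447 (95% counting interval 124 to 3697). The noncoding RNA LINC01405 had 0 CPM in each library at Day 5, against 179.9, 135 and 114 CPM in hESC (at least 403-fold lower). ANXA3, an annexin, had 0 CPM in each library at Day 5, against 121, 118 and 86.6 CPM in hESC (at least 310.2-fold lower). SCNN1A, an epithelial sodium channel subunit, had a hESC to Day 5 ratio of 1732 (95% counting interval 310.3 to 68468). Each of these 5 genes was at or near 0 in every library of its lower stage. MDK, the growth factor midkine, had 2664, 1850.2 and 3098 CPM at Day 5, against 553, 487 and 568 CPM in hESC (2.24 ± 0.21), and APOE, the lipid carrier, had 727, 558 and 776 CPM at Day 5, against 2861, 3094 and 3211 CPM in hESC (-2.15 ± 0.30), without overlap.

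The question whether LIS1+/- cells made the step differently was tested as the LIS1+/- step minus the LIS1+/+ step. Most of the step was common to both genotypes, and the genes that differed included stem cell genes that fell further in LIS1+/- cells. In the LIS1+/+ step 5453 genes were called (44.6%). Of the genes higher in LIS1+/- 1941 were also higher in LIS1+/+ (71.0% of the LIS1+/- calls, 69.3% of the LIS1+/+ calls), and of those lower 1942 were also lower (74.5% and 73.2%). The difference passed in 70 of 12215 genes (0.573%), 10 of them higher (0.0819%) and 60 lower (0.491%) in the LIS1+/- step, with 1467 genes at an unadjusted p under 0.05. Of the 70, 33 fell in both genotypes and further in LIS1+/-, and 10 fell in LIS1+/- without being called in LIS1+/+. In 54 of the 60 lower genes every LIS1+/- Day 5 library lay below every LIS1+/+ Day 5 library, and in 32 every LIS1+/- hESC library lay above every LIS1+/+ hESC library. The 60 genes were picked by a test on these same libraries, which favours such separation. The share of all tested genes separated in this way was not counted, so neither count is a result beyond the test. With 1 library left out at a time, the calls ranged from 31, without hESC LIS1+/+ replicate 3, to 79, without Day 5 LIS1+/- replicate 1. Counts over 1.5 times below 70 were also found without hESC LIS1+/+ replicate 2 (45), hESC LIS1+/- replicate 2 (41) or 3 (36), and Day 5 LIS1+/+ replicate 1 (39) or 2 (38). Like Day 5 LIS1+/- replicate 2, hESC LIS1+/+ replicate 3 had a trend of its counts with GC content (slope -0.0218 log2 units per percent GC). The Day 5 LIS1+/+ libraries were deeper, at 4216835 to 4501489 gene counts, than the Day 5 LIS1+/- libraries, and the part of depth in the difference was not tested.

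**Figure D4:**
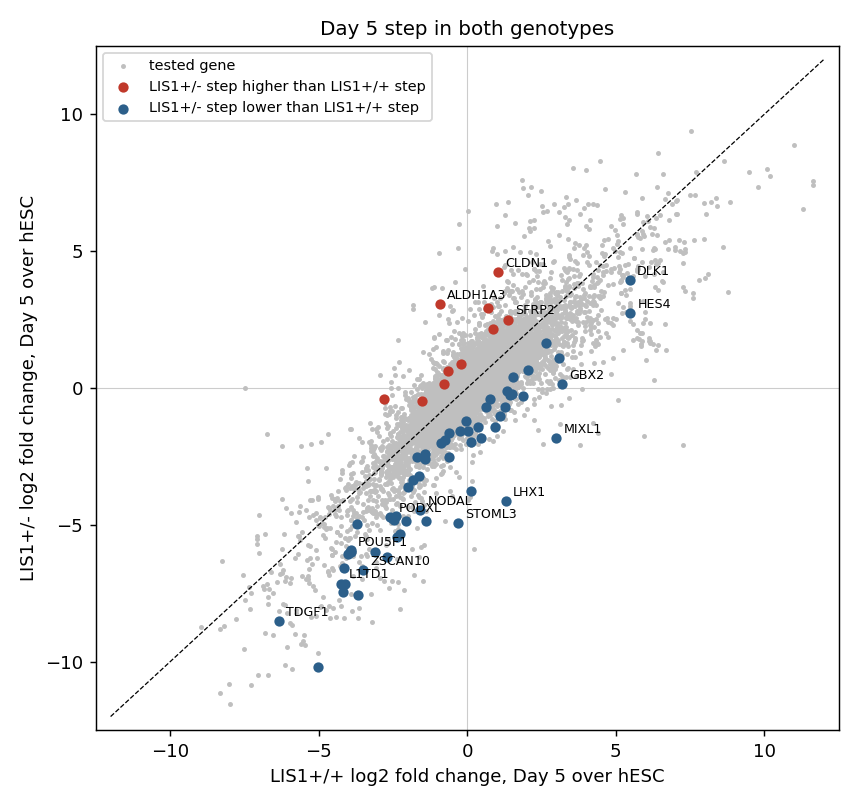
Log2 fold change of Day 5 over hESC in LIS1+/- cells (vertical) and LIS1+/+ cells (horizontal) for each of 12215 tested genes. The 10 red genes had a higher and the 60 blue genes a lower step in LIS1+/- than in LIS1+/+ cells, and the dashed line marks equal change.

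POU5F1 had 8.60, 7.31 and 5.85 CPM in LIS1+/- and 32.6, 32.7 and 37.4 CPM in LIS1+/+ organoids at Day 5, and 509, 400.3 and 458 CPM in LIS1+/- and 562, 529 and 459 CPM in LIS1+/+ hESC. The difference was -2.06 ± 0.24 on the log2 scale (adjusted p = 2.96e-05). PODXL had 63.2, 59.6 and 59.98 CPM in LIS1+/- and 223, 236 and 285 CPM in LIS1+/+ organoids, and 1352, 1753 and 1781 CPM in LIS1+/- and 1562, 1483 and 1245 CPM in LIS1+/+ hESC (-2.21 ± 0.22, adjusted p = 2.32e-06). In both genes the Day 5 libraries of the genotypes were apart and the hESC libraries overlapped. L1TD1 (-2.91 ± 0.47, adjusted p = 0.00345), ZSCAN10 (-3.13 ± 0.47, adjusted p = 0.00237), VRTN (-2.12 ± 0.34, adjusted p = 0.00237) and CD9 (-1.98 ± 0.29, adjusted p = 0.000528) also fell further. At Day 5 L1TD1 had 6.73, 1.46 and 1.76 CPM in LIS1+/- and 24.1, 27.9 and 38.6 CPM in LIS1+/+ organoids, and ZSCAN10 had 1.87, 6.58 and 8.78 CPM in LIS1+/- and 56.2, 46 and 49.4 CPM in LIS1+/+ organoids. These 6 genes were called with each of the 12 libraries left out in turn. Of the 17 tested pluripotency factors 5 were among the 70 genes, and of the 18 surface and signature genes 6 were among them. The share of all tested genes was 0.573%. SFRP2, among the 6 surface and signature genes, went the other way and rose more in LIS1+/- cells (1.12). The sum of the 8 stem cell markers was 577 to 715 CPM in LIS1+/- and 1253 to 1276 CPM in LIS1+/+ organoids at Day 5, and 5527 to 6044 CPM in LIS1+/- and 6733 to 6954 CPM in LIS1+/+ hESC.

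**Figure D5:**
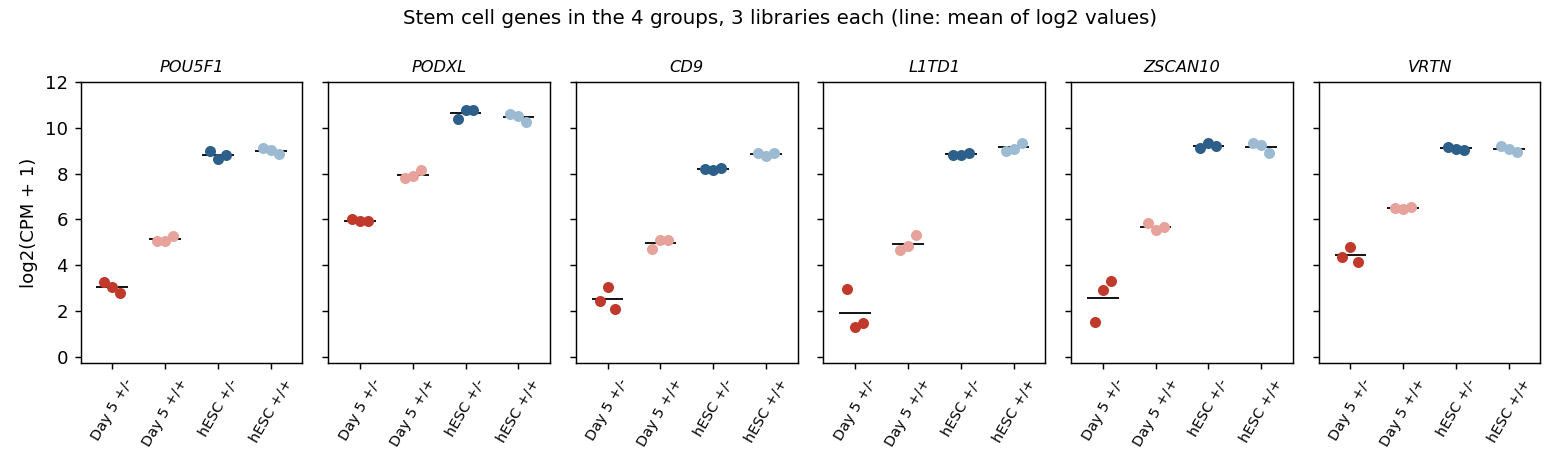
Levels of 6 stem cell genes as log2(CPM + 1), 3 libraries each of Day 5 LIS1+/-, Day 5 LIS1+/+, hESC LIS1+/- and hESC LIS1+/+, with a line at the mean of the log2 values. At Day 5 every LIS1+/- library lies below every LIS1+/+ library in all 6 genes.

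Nodal and streak genes took part in the difference. NODAL (-2.89 ± 0.67, adjusted p = 0.0413) and TDGF1 (-2.19 ± 0.46, adjusted p = 0.0258) fell further in LIS1+/-. MIXL1, a homeobox gene of the primitive streak, had 0.374, 0.731 and 0.878 CPM in LIS1+/- and 13.7, 14.6 and 42.8 CPM in LIS1+/+ organoids at Day 5, and 1.26, 2.70 and 3.25 CPM in LIS1+/- and 1.43, 3.34 and 4.34 CPM in LIS1+/+ hESC (-4.83 ± 1.08, adjusted p = 0.0329). GBX2 had 10.1, 12.1 and 6.14 CPM in LIS1+/- and 49.4, 39.2 and 35.2 CPM in LIS1+/+ organoids, and 7.58, 9.92 and 7.93 CPM in LIS1+/- and 3.81, 6.01 and 3.72 CPM in LIS1+/+ hESC (-3.07 ± 0.57, adjusted p = 0.0072). MIXL1 and GBX2 were higher in all LIS1+/+ Day 5 libraries, and GBX2 did not pass in the LIS1+/- step. With each of 12 libraries left out in turn GBX2 kept the call throughout. TDGF1 lost it without hESC LIS1+/- replicate 1 or 2, hESC LIS1+/+ replicate 1 or 2, Day 5 LIS1+/- replicate 3 or Day 5 LIS1+/+ replicate 3 (adjusted p up to 0.0862). MIXL1 kept it in 3 fits, those without hESC LIS1+/- replicate 1 and Day 5 LIS1+/+ replicate 1 or 2 (elsewhere adjusted p up to 0.191). NODAL kept it in 1 fit, that without Day 5 LIS1+/- replicate 2 (elsewhere adjusted p up to 0.127).

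Other members of the difference differed at the start of the step as well. HES4 had 575, 301 and 555 CPM in LIS1+/- and 597, 587 and 609.8 CPM in LIS1+/+ organoids, and 94.1, 69 and 55.2 CPM in LIS1+/- and 6.67, 21.4 and 13 CPM in LIS1+/+ hESC (-2.77 ± 0.49, adjusted p = 0.00973). Its hESC libraries were all higher in LIS1+/-. It was not called without hESC LIS1+/+ replicate 3 (adjusted p = 0.0561) or without the 3 libraries with a GC trend. STOML3, a stomatin-like membrane protein, had 0.748, 0.731 and 0.878 CPM in LIS1+/- and 7.48, 5.86 and 5.41 CPM in LIS1+/+ organoids, and 33.5, 27 and 17.3 CPM in LIS1+/- and 7.62, 9.35 and 6.21 CPM in LIS1+/+ hESC (-4.64 ± 0.64, adjusted p = 0.000339). CITED2, a transcriptional coactivator, had 97.6, 93.2 and 90.7 CPM in LIS1+/- and 172, 155 and 159 CPM in LIS1+/+ organoids, and 119, 84.3 and 99.2 CPM in LIS1+/- and 59.5, 60.8 and 73.2 CPM in LIS1+/+ hESC (-1.43 ± 0.24, adjusted p = 0.0034). In both genes LIS1+/- was the lower genotype at Day 5 and the higher one in hESC, in every library.

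Few genes gained more in LIS1+/- cells. ALDH1A3, an enzyme that makes retinoic acid, had 15, 15.7 and 20.5 CPM in LIS1+/- and 1.93, 2.93 and 1.58 CPM in LIS1+/+ organoids, and 2.53, 1.80 and 1.80 CPM in LIS1+/- and 3.33, 5.34 and 3.72 CPM in LIS1+/+ hESC (3.98 ± 0.78, adjusted p = 0.0107). MDFI, an inhibitor of myogenic bHLH factors, had 233, 321 and 295 CPM in LIS1+/- and 201, 223 and 225 CPM in LIS1+/+ organoids, and 70.1, 56.3 and 62 CPM in LIS1+/- and 115, 131 and 109 CPM in LIS1+/+ hESC (1.30 ± 0.23, adjusted p = 0.00348). SFRP2 had 5010.5, 5004 and 5738 CPM in LIS1+/- and 2539, 2312 and 2379 CPM in LIS1+/+ organoids, and 1002, 849.8 and 941 CPM in LIS1+/- and 833, 900.4 and 1046 CPM in LIS1+/+ hESC (1.12 ± 0.24, adjusted p = 0.024). Day 5 levels of the 3 genes were higher in every LIS1+/- than in every LIS1+/+ library. In hESC, MDFI and ALDH1A3 were lower in every LIS1+/- than in every LIS1+/+ library, so they differed at the start too. The hESC libraries overlapped in SFRP2. SFRP2 kept the call in 5 of the 12 fits with a library left out, with an adjusted p of up to 0.103 in the others, those without Day 5 LIS1+/- replicate 3, any Day 5 LIS1+/+ replicate, hESC LIS1+/- replicate 2 or 3, and hESC LIS1+/+ replicate 3. The neural plate genes PAX6 (adjusted p = 0.939), SOX1 (adjusted p = 0.719), HES5 (adjusted p = 0.741) and LHX2 (adjusted p = 0.838) did not pass in the difference, which does not show that their steps were equal.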

How the data were processed

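Bulk MARS-seq counts of 18 libraries (6 groups of 3) of the WIBR3 line were used, from RNA extracted with RNeasy kits. The authors deposited raw counts per gene, not normalized, in 26485 gene rows and 5 closing rows per library, and the closing rows stayed out of library sizes and tests. Per the submitters' processing notes cutadapt, STAR and DESeq2 were used, with versions not stated, and GRCh37 and hg38 are both named, without saying which served what. The treatment of molecular identifiers and of strand was not given in the sources used here.

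From these counts, filterByExpr on the 6 groups kept 12215 genes, which were scaled with TMM and tested two-sided by edgeR 4.0.16 (robust quasi-likelihood F-test, R 4.3.3) in 1 fit of 18 libraries with 12 residual degrees of freedom. P-values were adjusted by Benjamini-Hochberg over all tested genes. A test on 3 against 3 libraries alone cannot give an exact permutation p below 0.1. Bounds used a floor of 3 counts, and ratios of pooled counts have exact 95% binomial intervals. No 2 libraries agreed within sampling noise (chi-square per degree of freedom 4.28 to 16.0 within the groups compared). Same-numbered libraries deviated together by correlations of 0.079, 0.064 and 0.023, under the 0.1 set for pairing, so the numbers were not treated as pairs.

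Members, gene lists, marker sets and tests were chosen with earlier results of these data known. The rule for named genes took 16 fixed genes, the 15 largest rises and 15 largest falls with a mean of 10 CPM or more in the higher stage and no overlap, the 10 largest gains and losses in CPM, the up to 4 list members with the smallest adjusted p, and up to 12 genes of the difference in each direction. Other genes named were chosen after their values were seen, and some genes that the counts include are not reported here by name. Lists are described by counts and medians over tested members, with no test of the list. On simulated counts of 10895 genes the step recovered 51% of genes changed 2-fold and 89% of those changed 4-fold, with 4.76% unchanged genes among the calls, and the difference recovered 14% and 70%, with 5.62%.

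The alternatives were DESeq2 size factors, no low-count filter, DESeq2 1.42.0, a replicate block, only the libraries compared, each library left out, the 3 libraries with a GC trend left out, and the GC trend removed (GC content of the last 500 bases of GENCODE release 29 transcripts, matched for 11656 of 12215 genes, 95.4%). A replicate block in a fit of only the libraries compared was added after seeing the data. Promoter windows came from RefSeq on GRCh38.p14. Figures used Matplotlib 3.10.9 with Python 3.11.15, pandas 2.3.3 and NumPy 2.4.6, and intervals SciPy 1.17.1.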

Additional observations from a re-analysis of the deposited data

Results flagged for a closer look

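The step differed between the genotypes by the test of the difference itself (LIS1+/- step minus LIS1+/+ step, edgeR quasi-likelihood test) in 10 genes that were higher and 60 that were lower in the LIS1+/- step. The differences below are on the log2 scale.

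Stem cell genes that fell further in LIS1+/- cells were PODXL (-2.21), POU5F1 (-2.06), POU5F1B (-2.42, a copy that may share reads with POU5F1), CD9 (-1.98), VRTN (-2.12), ZSCAN10 (-3.13), L1TD1 (-2.91), NODAL (-2.89) and TDGF1 (-2.19). The membrane protein STOML3 (-4.64), the arginine synthesis enzyme ASS1 (-1.60), the troponin TNNT1 (-2.10), the coactivator CITED2 (-1.43) and the RNA-binding protein RBPMS (-1.12) also had lower steps. So did the Notch target HES4 (-2.77), the hindbrain factor GBX2 (-3.07), the streak genes MIXL1 (-4.83) and LHX1 (-5.43), and the imprinted gene DLK1 (-1.54).

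Genes with a higher step in LIS1+/- were MDFI (1.30), ALDH1A3 (3.98), GLIS2 (1.26), ARRB1 (2.40), SFRP2 (1.12), STARD7 (1.05), SYT11 (2.22), ERGIC1 (1.09), CLDN1 (3.22) and ZFP36L2 (0.95). Not all of them rose in LIS1+/- cells. STARD7 fell in both genotypes, by -0.47 in LIS1+/- and -1.52 in LIS1+/+. ARRB1 (-0.40) and ZFP36L2 (0.16) were not called in the LIS1+/- step and fell in LIS1+/+ (-2.80 and -0.79).

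Of these 29 genes 15 kept the call with each of the 12 libraries left out in turn. The other 14 lost it with at least 1 library left out, most of them (13) in the fit without hESC LIS1+/+ replicate 3, 1 of the 3 libraries with a GC trend. Examples are NODAL (adjusted p = 0.127) and CLDN1 (0.192) without that library, MIXL1 (0.191) without hESC LIS1+/- replicate 3, LHX1 (0.160) without Day 5 LIS1+/+ replicate 1 and TDGF1 (0.0862) without Day 5 LIS1+/- replicate 3.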

How the results depend on the processing

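The count of genes called in the LIS1+/- step stayed within 1.5 times of 5341 under every alternative run, between 4561 (2267 higher, 2294 lower, without hESC replicate 2) and 5682 (2912 higher, 2770 lower, GC trend removed), and no gene called in the main fit was called in the opposite direction. With 1 library left out the calls ranged from 4561 to 5098, the higher ones from 2267 to 2585 and the lower ones from 2289 to 2513. No paired analysis was taken as the main one. With the replicate block 5298 genes were called (2697 higher, 2601 lower), ZIC1 and SPDL1 among the named genes losing the call, and in the added fit of only the 6 libraries compared with the replicate block 4789 (2320 higher, 2469 lower). Of 305 named genes of the step 34 lost or gained the call in at least 1 alternative, and none reversed. L1TD1, CDH4, CDH6, PTBP2, NOVA1, MITF, WNT4 and AFP were not among the 305.

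The difference between genotypes moved more. Its 10 higher and 60 lower genes became 32 and 249 without a low-count filter, 29 and 111 by the DESeq2 test, and 16 and 104 in a fit of only the libraries compared. With 1 library left out the higher genes ranged from 2 to 14 and the lower genes from 29 to 65. The replicate block gave 10 and 67, DESeq2 size factors 11 and 56, leaving out the 3 libraries with a GC trend 10 and 88, and removing the GC trend 15 and 72. Of the 70 genes 51 were among the calls without the GC-trend libraries, where CLDN1, DLK1, ERGIC1, HES4, LHX1 and STARD7 lost the call (adjusted p up to 0.141), and 62 with the trend removed, where DLK1 and ZFP36L2 lost it (up to 0.132). Why the counts moved was not tested. In simulated counts the difference recovered 14% of genes changed 2-fold, so such changes can be missed.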
